A study of Homo sapiens with 13 samples.

Results

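Ubiquitin-conjugating (E2) enzymes were taken as the genes whose symbol is UBE2 followed by 1 letter and optional digits, with no pseudogene and no read-through symbol. There were 33 such genes in the 2 deposited tables, 32 of the 24875 genes in the Silvestrol table and 32 of the 13121 genes in the INK128 table. After the filters on low values, 30 of 10505 genes remained for Silvestrol and 27 of 7084 for INK128. UBE2V1 has no entry of its own in the Silvestrol table. UBE2U had no read in any of the 9 Silvestrol libraries and is not listed for INK128, and UBE2L3 was left out of the Silvestrol comparisons because its RF value was 0 in DMSO at passage 3. In the INK128 table, UBE2D1, UBE2D4, UBE2F, UBE2Q2 and UBE2W fell under the minimum. Symbols outside the rule (11 in all, among them UBE2NL, UBE2MP1 and TMEM189-UBE2V1) were not counted as members.

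MDA-MB-231, an established triple-negative human breast cancer line, was used throughout, and ribosome footprints (RFs, the fragments of mRNA that a ribosome covers) were sequenced beside mRNA. The RF libraries of the Silvestrol experiment are 1 of untreated cells, 1 each of DMSO and Silvestrol (25 nM) after 1 h, and 2 each of DMSO and Silvestrol (25 nM) after 2 h, where the cultures are of passages 3 and 4. The mRNA libraries, 1 for each treatment, are of passage 3 after 2 h. In a separate experiment, cells received DMSO or 200 nM INK128 for 2 h, with 1 RF and 1 total RNA library each, all of passage 3. Silvestrol inhibits eIF4A, the RNA helicase of the cap-binding complex eIF4F, and INK128 inhibits the kinase mTOR, which controls the cap-binding protein eIF4E. No genotype differed between groups, and all control libraries but the untreated one received the solvent DMSO. The labels call passages 3 and 4 biological replicates, so only the 2 h RF comparison has replicates, with n = 2 a group. Labels of 2 libraries contradict themselves. The passage 3 Silvestrol 2 h RF library is also called 1 h, and the DMSO mRNA library is also called untreated. Titles decided both, and the deposited control mRNA values carry no treatment name.

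An E2 enzyme takes activated ubiquitin, or a ubiquitin-like protein, from an E1 enzyme onto a cysteine and passes it to a substrate, usually with an E3 ligase. The E2 often sets which kind of chain is built, and so whether the substrate goes to the proteasome or is changed in activity or partners. A few E2s serve ubiquitin-like proteins, such as NEDD8 and ISG15. eIF4A unwinds structure in the 5′ UTR, the stretch of mRNA ahead of the start codon, so that the ribosome can reach that codon.

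Counted reads ranged from 2652423 (Silvestrol 2 h, passage 4) to 31188148 (DMSO 1 h) in RF libraries, and were 50315607 and 24792922 in the DMSO and Silvestrol mRNA libraries. The INK128 table has no counts, so its depth is unknown. RPKM, reads scaled by length and library size, is a share of each library, so a change common to all genes cannot be seen in it, and fewer cells and less RNA per cell cannot be told apart. VIM (RF RPKM 6454 and 4789 in the DMSO 2 h libraries), AXL (109 and 162) and CD44 (138 and 229), markers of this mesenchymal line, were high. ESR1 and PGR, the hormone receptors that triple-negative cells lack, were at 0 in both libraries, ERBB2 was at 3.27 and 3.90, and the epithelial cadherin CDH1 at 0 and 0.05.

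The E2 genes differed in how much of their coding sequence occurs elsewhere in the genome, mostly in processed pseudogenes, which are copies of an mRNA set back into the genome. The RPKM values leave out positions whose reads align elsewhere, so each coding sequence was cut into all windows of 30 bases, and the share of windows found elsewhere in GRCh37 with at most 2 mismatches was computed. All windows were shared for UBE2D3, UBE2L3, UBE2N, UBE2S and UBE2V1. No window was shared for 8 members (UBE2G2, UBE2J1, UBE2J2, UBE2K, UBE2L6, UBE2O, UBE2T and UBE2Z). Shares were 95.1% for UBE2E3, 91.4% for UBE2M, 72.2% for UBE2C, 69.0% for UBE2F, 61.9% for UBE2V2, 58.4% for UBE2Q2, 57.8% for UBE2W and 52.6% for UBE2H. One window of each of 4 wholly shared genes is shown beside a copy, with the differing base in capitals, since they show that a 30-base footprint of such a gene can have more than 1 possible origin.
UBE2D3: ggatgatatgtttcaTtggcaagccacaat
UBE2D3P1: ggatgatatgtttcaCtggcaagccacaat
UBE2L3: gggatgaaaaacttcCgtaacatccaggtt
ENSG00000279392: gggatgaaaaacttcTgtaacatccaggtt
UBE2N: gcgtttgctggcagaAccagttcctggcat
UBE2NL: gcgtttgctggcagaGccagttcctggcat
UBE2S: catcgagggccctgaGgggaccccatatgc
UBE2SP1: catcgagggccctgaAgggaccccatatgc

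The windows are on the coding strand, 5′ to 3′. The UBE2N window lies in 1 coding exon on the minus strand (chr12:93805038-93805067) and its copy on the plus strand of chrX:142967241-142967270, in UBE2NL, a gene without introns. UBE2L3 is on the plus strand (chr22:21947174-21947203) and its copy, also on the plus strand, is a processed pseudogene at chr14:55695986-55696015. The UBE2D3 window (chr4, minus strand) and the UBE2S window (chr19, minus strand) each cross an exon junction, and their copies run unbroken through the minus-strand processed pseudogenes UBE2D3P1 (chr20:5273368-5273397) and UBE2SP1 (chr17:15608048-15608077).

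The counted length, the length that reads and RPKM together imply, was taken as a percent of the coding length and scaled so that the median gene is at 100. Across the 19 kept members with under 50% of windows shared it ranged from 66.3% (UBE2D2) to 105.7% (UBE2J2) in DMSO at passage 3. Across the 11 kept members with 50% or more it ranged from 6.3% (UBE2S) to 87.7% (UBE2Q2). The share of windows and the counted length correlated across the 30 kept members with r = -0.914 and rho = -0.948, a description over genes, which are not independent and share the same library.

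**Figure D1:**
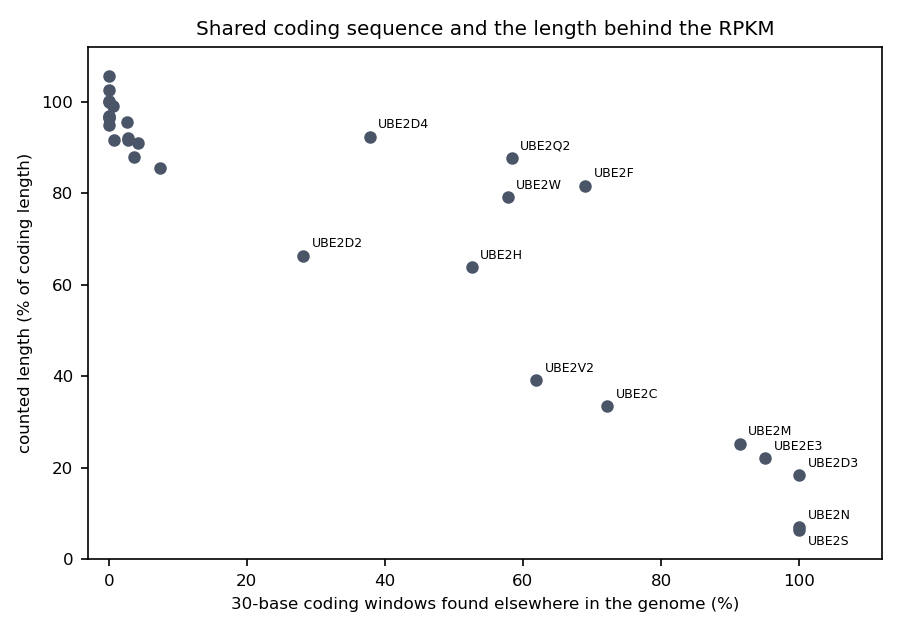
Percent of 30-base coding windows found elsewhere in the genome (x axis) against counted length as a percent of coding length in the DMSO 2 h passage 3 RF library (y axis), 1 point for each of 29 kept members, named from 15% upwards. Members with few shared windows sit near 100%, and UBE2N (7.0%) and UBE2S (6.3%) are lowest.

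UBE2N had 7 to 26 RF reads a library, UBE2D3 3 to 42 and UBE2S 2 to 12. UBE2L3 had 1 RF read in untreated cells, 3 in DMSO at 1 h and 0 and 6 in DMSO at 2 h, against 0 in Silvestrol at 1 h and 5 and 3 at 2 h. In the INK128 table, made in another way that no source used here states, the same genes were at 38.1 (UBE2N), 68.5 (UBE2D3), 204.1 (UBE2S) and 35.5 FPKM (UBE2L3) in the DMSO RF library. That table also lists UBE2NL at 7.03 FPKM and UBE2MP1 at 17.2 FPKM in the same library, and whether reads of a gene and its copy were split there was not tested. UBE2MP1 had 1463 and 622 mRNA reads in the DMSO and Silvestrol libraries of the Silvestrol table, beside 3242 and 1458 for UBE2M. Both loci had a lower count in the smaller library.

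At 2 h, the question was which E2 mRNAs lost or gained ribosomes under eIF4A inhibition. RF counts of 7 of 30 members fell, against 7.88% of all genes tested, and 1 rose, against 2.47%. The members that fell were UBE2H, UBE2D2, UBE2G1, UBE2E1, UBE2D1, UBE2Q1 and UBE2R2, and UBE2O rose. The median log2 RF change was -0.49 over the 30 members and -0.01 over all 10505 genes, and 21 members were below 0. The test was edgeR's quasi-likelihood test on the 4 RF libraries at 2 h with Benjamini-Hochberg adjustment over all genes. It and its standard errors left out the pairing of the libraries by passage. With passage as a block, 14 members fell (background 28.1%) and 4 rose (background 25.0%), and with the counted length as an offset beside the block 17 fell (background 30.7%) and 4 rose (background 17.6%). With 4 libraries the block leaves little to measure each gene's own spread. Its small p-values, here and below, therefore rest mostly on the spread pooled over all genes. DESeq2 called 7 lower (background 9.59%) and 2 higher (background 5.81%). Leaving out either Silvestrol library at 2 h left 0 of 10505 genes called by edgeR, with 8 members lower (background 12.2%) and 2 higher (background 6.18%) at an unadjusted p under 0.05 without the passage 4 library, and 10 (background 11.2%) and 1 (background 4.24%) without the passage 3 library. Without the passage 3 DMSO library 4 members fell (background 7.37%) and 1 rose (background 3.07%), and the calls of UBE2D1, UBE2Q1 and UBE2R2 were lost.

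**Figure D2:**
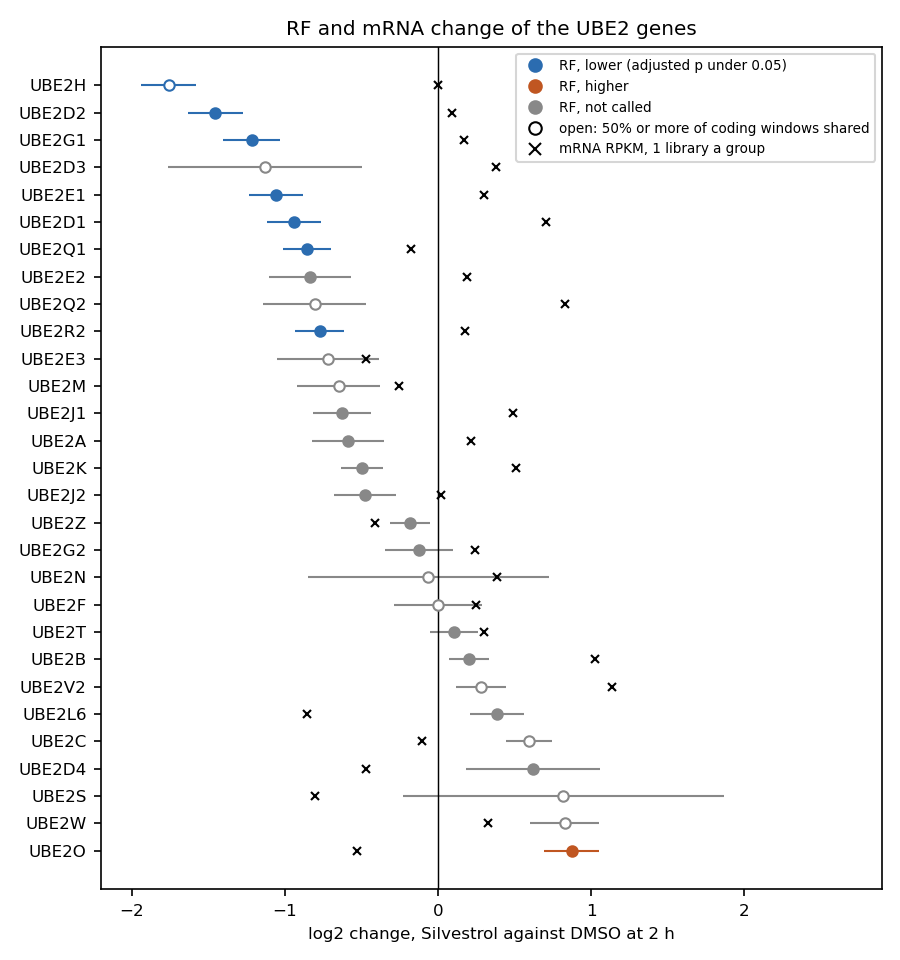
log2 change in RF counts with Silvestrol at 2 h for 29 of the 30 kept members (circles, edgeR estimate with standard error, n = 2 libraries a group) and in mRNA RPKM (crosses, 1 library a group). UBE2H is lowest at -1.76 and UBE2O highest at 0.87, and open circles, among them UBE2S, UBE2N and UBE2D3 with wide errors, mark members with 50% or more shared windows.

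UBE2H works with the CTLH ligase complex and showed the deepest fall. Its RF RPKM was 123 in untreated cells, 134 in DMSO at 1 h, and 132 and 137 in DMSO at 2 h (passages 3 and 4), against 48.7 in Silvestrol at 1 h and 28.3 and 28.8 at 2 h. No Silvestrol library reached any control library, as in 32.9% of all genes. The log2 RF change in counts was -1.76 ± 0.18 (SE, adjusted p = 0.0175). The counted length of UBE2H was 1.30 times longer in Silvestrol than in DMSO at passage 3, relative to the median gene, and with that length as an offset the change was -2.18 (adjusted p = 0.012). Its mRNA stood at 23.3 RPKM in DMSO and 23.4 in Silvestrol. These values are of the UBE2H entry with the highest mean RF RPKM, and the other entry of this symbol was not examined. Of the coding windows of UBE2H 52.6% are shared.

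**Figure D3:**
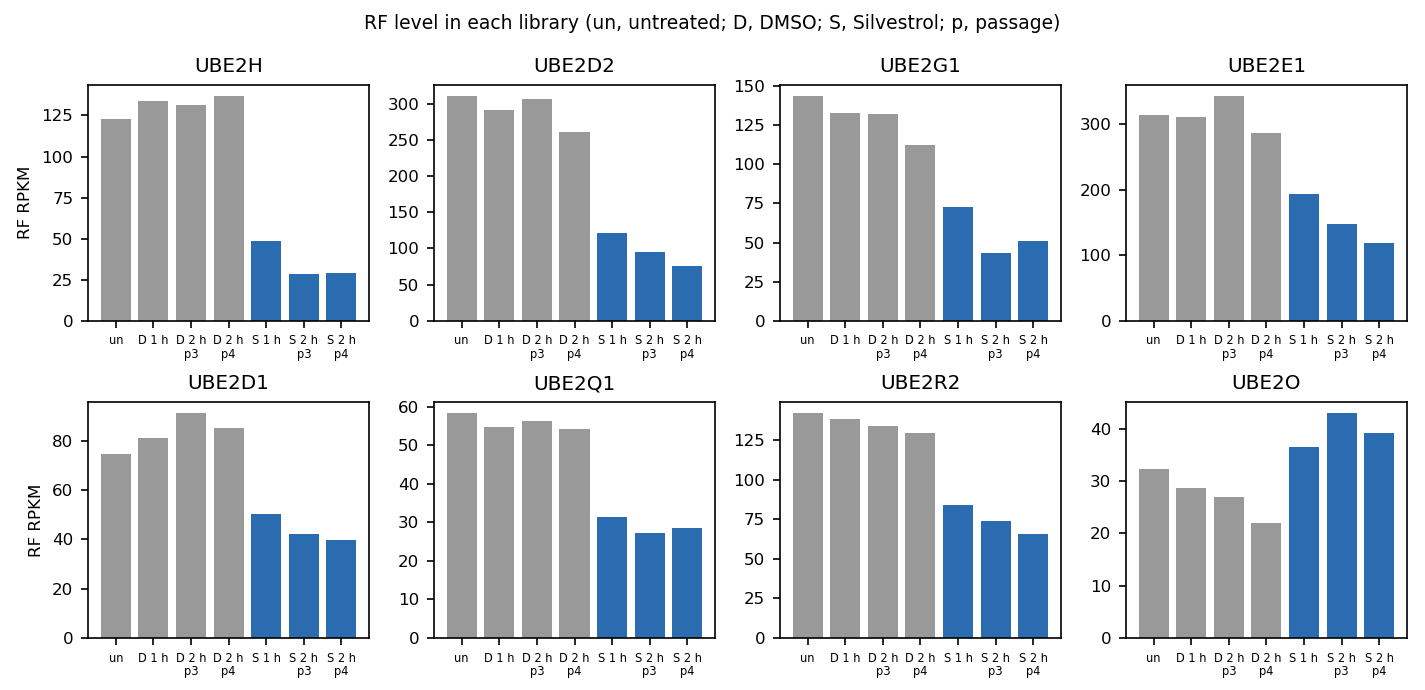
RF RPKM (y axis, from 0) of the 8 members called at 2 h in each of the 7 RF libraries, control libraries in grey and Silvestrol libraries in blue, 1 bar a library. In the 7 members that fell, each blue bar is under each grey bar, and in UBE2O each blue bar is above each grey bar, as in 32.9% and 10.2% of all genes, the members shown being chosen by the test on 4 of these libraries.

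The UBE2D and UBE2E families serve a wide range of E3 ligases and transfer the first ubiquitin onto many substrates. Of their 7 members, 3 fell and 0 rose (backgrounds 7.88% and 2.47%), and the family median was -0.94, against -0.01 over all genes. UBE2D2 had RF RPKM of 311 in untreated cells, 292 in DMSO at 1 h, and 306 and 262 in DMSO at 2 h, against 121 in Silvestrol at 1 h and 95.2 and 75.6 at 2 h (log2 change -1.45 ± 0.18, adjusted p = 0.0196). UBE2E1 had 314, 311, 344 and 287 in the same 4 controls and 194, 148 and 119 in Silvestrol (-1.06 ± 0.18, adjusted p = 0.032). UBE2D1 had 74.8, 81.0, 91.3 and 85.4 in controls and 50.5, 42.4 and 39.8 in Silvestrol (-0.94 ± 0.18, adjusted p = 0.037), and its call was lost without the passage 3 DMSO library (-0.87). In all 3 the groups did not overlap (background 32.9%), and the 1 h value lay between the controls and the 2 h values.

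UBE2E2, a close relative of UBE2E1, had a log2 change of -0.84 ± 0.27 (adjusted p = 0.106) and was called with the passage block (adjusted p = 2.8e-07). UBE2D3, the fourth lowest change, was at -1.13 ± 0.63 (adjusted p = 0.285) on 13 and 3 Silvestrol reads against 42 and 24 DMSO reads, and leaving out 1 library moved it from -1.68 (without DMSO passage 3) to -0.50 (without DMSO passage 4). With block and offset together it was called (-1.63, adjusted p = 0.0104). Its RPKM of 10.7, 11.02, 15.1 and 24.9 in controls and 3.06, 6.61 and 3.63 in Silvestrol did not overlap (background 32.9%), but rest on those few reads. UBE2E3, 95.1% shared, had 38 to 193 RF reads in controls and 8 to 75 in Silvestrol, and its counted length was 1.86 times longer in Silvestrol at passage 3. Its change was -0.72 ± 0.33 in counts and -1.54 with the length offset, neither called (adjusted p = 0.214 and 0.096). It was called with block and offset together (-1.59, adjusted p = 3.2e-04). Over all 7 RF libraries, taken as independent though they are not, the change was -0.64. UBE2D4 was the member of the family with the opposite sign, 0.62 ± 0.44 (adjusted p = 0.383), on 6 to 64 reads.

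E2s that build Lys48-linked chains, the proteasome signal, all had negative estimates, as had 50.9% of all genes, and 2 of 4 fell (background 7.88%). UBE2G1, which extends chains on substrates of cullin 4 ligases, had RF RPKM of 144, 133, 132 and 113 in controls and 72.4, 43.5 and 51.1 in Silvestrol (-1.22 ± 0.19, adjusted p = 0.026). UBE2R2, a paralog of CDC34 that extends chains on cullin-RING substrates, had 142, 139, 134 and 130 in controls and 83.8, 73.7 and 65.9 in Silvestrol (-0.77 ± 0.16, adjusted p = 0.044). That call was lost with RLE size factors (-0.73, which left 6 members lower) and without the passage 3 DMSO library (-0.73). UBE2K had RF RPKM of 294, 305, 313 and 327 in controls and 221, 214 and 196 in Silvestrol, without overlap (background 32.9%), and missed the threshold (-0.50 ± 0.13, adjusted p = 0.076, and 7.1e-06 with the passage block). UBE2G2, which acts in degradation of proteins from the endoplasmic reticulum, was at -0.12 ± 0.22 (adjusted p = 0.738), and its control range of 110 to 144 RPKM overlapped the Silvestrol range of 101 to 127.

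The APC/C is the ligase that drives cells out of mitosis, with UBE2C starting the chain and UBE2S extending it. UBE2C had the highest RF level of all members in control libraries, at 661, 746, 732 and 611 RPKM, and 1045, 1063 and 788 in Silvestrol. The Silvestrol libraries were all above the controls (background 10.2%), although the passage 4 Silvestrol value was close to the 746 of DMSO at 1 h. Its log2 change of 0.59 ± 0.15 missed the threshold (adjusted p = 0.067) and passed it with the passage block (adjusted p = 2.6e-08) and with DESeq2. Over all 7 RF libraries, taken as independent though they are not, the change was 0.64. UBE2S cannot be read from this table. Its passages went opposite ways, from 5 to 12 reads at passage 3 and from 8 to 2 at passage 4, and the estimate was 0.82 ± 1.05.

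UBE2N is the catalytic E2 of Lys63-linked chains, which signal rather than send to the proteasome, and UBE2V1 and UBE2V2 are its catalytically inactive partners. UBE2V2 had RF RPKM of 108, 130, 135 and 110 in controls and 134, 145 and 102 in Silvestrol, so that the groups overlapped (0.28 ± 0.16, adjusted p = 0.303). UBE2N, at 8 to 26 control reads and 7 to 18 Silvestrol reads, had an estimate of -0.06 ± 0.79, and of -0.95 with the length offset (adjusted p = 0.215). For UBE2V1 only the read-through symbol TMEM189-UBE2V1 was listed, with 17.4 to 26.8 RPKM in controls and 16.8 to 26.4 in Silvestrol.

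UBE2A and UBE2B, the RAD6 homologues that act in DNA damage tolerance and histone H2B ubiquitination, differed in sign. UBE2A was at -0.59 ± 0.24 (adjusted p = 0.164, and 1.4e-08 with the passage block), from control values of 479 to 565 RPKM to Silvestrol values of 256 to 476. UBE2B was at 0.20 ± 0.13 (adjusted p = 0.340), with controls of 253 to 287 RPKM and Silvestrol values of 252 to 322. The difference between the 2 genes was not tested. UBE2J1 and UBE2J2, anchored in the membrane of the endoplasmic reticulum, were at -0.63 ± 0.19 and -0.48 ± 0.20 (adjusted p = 0.094 and 0.180), and both were called with the passage block (adjusted p = 1.7e-05 and 4.4e-04).

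None of the 5 E2s of ubiquitin-like modifiers was called in the test on the 4 libraries at 2 h without the block. UBE2M and UBE2F pass NEDD8 to cullins. UBE2M had RPKM of 74.7, 92.4, 89.1 and 46.5 in controls and 38.8, 28.1 and 21.0 in Silvestrol, and its change was -0.65 ± 0.27 in counts (adjusted p = 0.177) and -1.40 with the length offset (adjusted p = 0.083), its counted length being 1.52 times longer in Silvestrol at passage 3. UBE2M was called with the passage block (adjusted p = 0.0036). Over all 7 RF libraries, taken as independent though they are not, its change was -0.73. UBE2F had 9.47 to 11.3 RPKM in controls and 9.07 to 11.8 in Silvestrol (-0.001 ± 0.29, adjusted p = 0.998).

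UBE2L6, the interferon-induced E2 of ISG15, had RF RPKM of 95.5, 113, 117 and 157 in controls and 115.3, 156 and 170 in Silvestrol, with overlapping groups (0.38 ± 0.18, adjusted p = 0.212, and 0.0019 with the passage block). UBE2Z, which works with the E1 enzyme UBA6, was at -0.19 ± 0.13 (adjusted p = 0.381) and was called with block and length offset together (-0.25, adjusted p = 0.0466).

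UBE2O, a large protein with both E2 and E3 activity, was the member that rose. Its RF RPKM was 32.2, 28.7, 27.0 and 21.9 in controls and 36.6, 43.0 and 39.2 in Silvestrol, without overlap (background 10.2%). The log2 change was 0.87 ± 0.18 (adjusted p = 0.044), in a test on 4 of these libraries. UBE2W, which ubiquitinates the amino terminus of proteins, had 34.1, 30.4, 26.6 and 27.7 in controls and 42.9, 44.5 and 44.1 in Silvestrol, also without overlap (background 10.2%). It missed the threshold (0.83 ± 0.22, adjusted p = 0.076, and 5.7e-05 with the passage block). UBE2Q1 fell, from 58.4, 54.8, 56.4 and 54.3 to 31.5, 27.3 and 28.5 RPKM (-0.85 ± 0.16, adjusted p = 0.036), and its call was lost without the passage 3 DMSO library (-0.80). Its paralog UBE2Q2 had 5.29, 6.43, 6.14 and 8.14 in controls and 3.56, 3.06 and 4.16 in Silvestrol (-0.81 ± 0.34, adjusted p = 0.178, and 0.0117 with the passage block). UBE2T, the E2 of the Fanconi anemia pathway, had 542, 482, 507 and 419 in controls and 450, 458 and 456 in Silvestrol and was not called (0.11 ± 0.16, adjusted p = 0.681).

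At 1 h, with 1 library a group and no test, RF RPKM of 12 of 30 members were lower by 1.5-fold or more (background 21.9%) and 1 was higher (background 1.64%). The member that was higher was UBE2N, on 8 and 18 reads. Among the 12 lower, UBE2S rests on 11 and 3 reads and UBE2D3 on 35 and 9. The median log2 change was -0.50 over members and -0.18 over all genes, and relative to that gene median 9 members were lower (background 14.2%) and 3 higher (UBE2C, UBE2N and UBE2W, background 5.01%). UBE2H was at -1.46 at 1 h and -2.22 and -2.25 at 2 h (passages 3 and 4), and UBE2D2 at -1.27, -1.69 and -1.79. UBE2G1 was at -0.88, -1.60 and -1.14. In these 3 the 2 h changes were larger than the 1 h change. UBE2M was at -1.25, -1.66 and -1.15, and UBE2W at 0.50, 0.74 and 0.67.

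Over the 7 RF libraries, the RPKM of all 3 Silvestrol libraries lay below all 4 controls in 18 of 30 members (background 32.9%) and above them in 4 (UBE2C, UBE2D4, UBE2O and UBE2W, background 10.2%). All of them but the passage 4 libraries at 2 h are of passage 3, so these libraries cannot be taken as 7 independent cultures. In the edgeR fit on all 7 libraries 13 members fell (background 20.4%) and 3 rose (background 13.3%). That fit has no term for time or passage and takes the libraries as independent, so its calls overstate the replication.

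mRNA levels were then compared to separate RF change from mRNA change. By 1.5-fold, 2 members were lower in Silvestrol (UBE2L6 and UBE2S, background 11.8%) and 4 higher (UBE2B, UBE2D1, UBE2Q2 and UBE2V2, background 18.3%), with 1 library a group and no test. Median log2 mRNA changes were 0.18 over members and 0.04 over all genes. UBE2V2 went from 11.3 to 24.8 mRNA RPKM and UBE2B from 18.7 to 38.1, while their RF levels in passage 3 were 135 and 145, and 287 and 275. UBE2L6, whose RF change was called with the passage block and not without it, went from 61.3 to 33.9 mRNA RPKM with RF of 117 and 156. UBE2O mRNA was 15.7 in DMSO and 10.9 in Silvestrol. Among the members called for RFs, UBE2O had lower mRNA and higher RF RPKM, and UBE2D1 the reverse, with mRNA of 8.62 and 14.0 RPKM beside RF of 91.3 and 42.4. UBE2H, UBE2D2 and UBE2G1 lost RFs with log2 mRNA changes of 0.00, 0.09 and 0.17.

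Translational efficiency (TE) is the RF RPKM over the mRNA RPKM. The log2 change in TE with Silvestrol at passage 3 was expressed as a z-score over the 10505 genes. The member median was -0.74, against 0.03 over all genes, and 22 of 30 members were below the all-gene median. Below -1.5 were UBE2H (-1.94), UBE2Q2 (-1.54) and UBE2D1 (-1.52), 3 of 30 members against a background of 6.57%, and UBE2D2 (-1.49) and UBE2G1 (-1.48) lay just above that threshold. Above 1.5 were UBE2S (2.81), UBE2L6 (1.60) and UBE2O (1.54), against a background of 4.70%. With RFs of passage 4 the z-score of UBE2S was -0.16, that of UBE2L6 1.33 and that of UBE2O 1.75, so that 6 members were below -1.5 (background 6.75%) and 1 above 1.5 (background 4.78%). Of those 6, UBE2D3 had 24 and 3 RF reads in DMSO and Silvestrol at passage 4 and UBE2N had 21 and 7. The TE of UBE2H went from 5.64 to 1.21 and that of UBE2D1 from 10.6 to 3.02, while that of UBE2L6 went from 1.92 to 4.62.

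In the edgeR interaction of assay and treatment over 6 libraries, 0 members were called lower (background 0.0190%) and 0 higher (background 0.00%), with 10 lower (background 14.4%) and 3 higher (background 10.5%) at an unadjusted p under 0.05. DESeq2 called 3 lower (UBE2D1, UBE2D2 and UBE2H, background 5.10%) and 2 higher (UBE2L6 and UBE2O, background 3.74%). With passage as a block edgeR called 13 lower (background 22.9%) and 5 higher (background 23.1%), and with the length offset as well 16 lower (background 23.2%) and 4 higher (background 21.8%). The log2 TE change was -1.78 ± 0.32 for UBE2H (adjusted p = 0.079, and 3.4e-05 with the block), -1.43 ± 0.29 for UBE2D2 (0.0895, and 3.9e-05 with the block), 1.53 ± 0.33 for UBE2O (0.0898, and 1.1e-05 with the block) and 1.35 ± 0.32 for UBE2L6 (0.0992, and 1.2e-04 with the block). Each treatment has 1 mRNA library in this model, so the spread of mRNA between cultures was not measured. As for RF, the p-values with the block rest mostly on the spread pooled over all genes.

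The 5′ UTRs of the members were then set beside their RF change, using 1 transcript a gene from GENCODE on GRCh37. They ranged from 11 bases (UBE2O) to 598 (UBE2R2), with a median of 149 over the 30 members and 132 over 10259 genes. All 5 members with 300 bases or more (UBE2D2, UBE2E3, UBE2G1, UBE2H and UBE2R2) had negative RF changes, from -1.76 to -0.72, and 85.1% of the 1877 genes of that length class were negative. All 5 members under 60 bases (UBE2B, UBE2C, UBE2O, UBE2V2 and UBE2W) had positive changes, from 0.20 to 0.87, and 15.8% of the 2244 genes of that class were negative. Of the other 20 members, 16 were negative, against 53.3% of 6138 genes. Across members, log2 length and log2 RF change correlated with r = -0.761 and rho = -0.772, and across all genes with r = -0.572 and rho = -0.595. For the TE z-score r was -0.492 over members and -0.501 over all genes, and rho was -0.646 and -0.535. Across the 19 members with under 50% shared windows r with the RF change was -0.808. These are descriptions over genes measured in the same libraries, and family members of like sequence are not independent points.

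**Figure D4:**
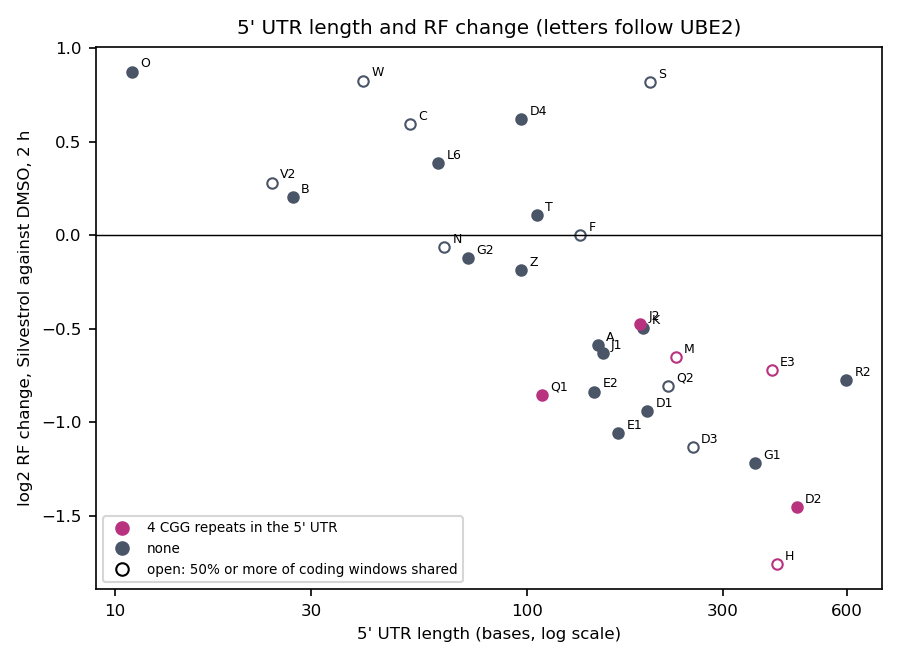
Length of the 5′ UTR (x axis, bases, log scale) against the log2 RF change with Silvestrol at 2 h (y axis) for 29 of the 30 kept members, with the letters after UBE2 as names, pink where the 5′ UTR holds 4 CGG repeats, and open where 50% or more of coding windows are shared. The shortest 5′ UTRs (UBE2O, 11 bases) lie above 0 and those of 300 bases or more lie below 0, while UBE2S (199 bases, 2 to 12 reads) lies apart from its neighbours.

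CGG repeated 4 times in a row was searched on the sense strand of the 5′ UTRs, with no matching of genes by 5′ UTR length. They were present in the 5′ UTR of 6 of 30 members and of 4.66% of 10259 genes. The 6 first sites are shown with 6 flanking bases on each side and the motif in capitals, because each of these members had a negative RF estimate, as had 77.8% of the 478 genes with the motif.
UBE2D2: cagctaCGGCGGCGGCGGcggtgg
UBE2E3: gccgggCGGCGGCGGCGGgaggct
UBE2H: ggggggCGGCGGCGGCGGctgacg
UBE2J2: ctgaggCGGCGGCGGCGGcgctgc
UBE2M: cggcagCGGCGGCGGCGGcggcag
UBE2Q1: ggaccgCGGCGGCGGCGGcggcgg

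On GRCh37 these are at chr5:138941114-138941137 (plus strand, UBE2D2), chr2:181845366-181845389 (plus strand, UBE2E3), chr7:129592524-129592547 (minus strand, UBE2H), chr1:1209180-1209203 (minus strand, UBE2J2), chr19:59069750-59069773 (minus strand, UBE2M) and chr1:154531106-154531129 (minus strand, UBE2Q1). The last base of the motif lies 7 bases ahead of the start codon in UBE2M, 82 in UBE2Q1, 134 in UBE2H, 140 in UBE2J2, 245 in UBE2D2 and 342 in UBE2E3. The median log2 RF change was -0.79 over these 6 members, from -1.76 to -0.48, and -0.47 over the 478 genes with the motif. The 24 members without it had a median of -0.13 and reached -1.22 in UBE2G1, whose 5′ UTR of 359 bases holds no such run. A match is a run of letters, and its part in the RF change was not tested.

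INK128 left the E2 genes close to the rest of the transcriptome, with 1 library a group and no test. Total RNA FPKM was lower by 1.5-fold or more in 26 of 27 members, as in 92.2% of all genes, and the all-gene median log2 change was -1.17. Relative to that median, 0 members were lower by 1.5-fold (background 2.40%) and 1 was higher (UBE2T at 2.01 and 1.39 FPKM in DMSO and INK128, background 7.83%). For RFs, 1 member was lower by 1.5-fold (UBE2V1, background 3.44%) and 0 were higher (background 3.88%), as also relative to the gene median (backgrounds 3.59% and 3.75%), and the median changes were -0.004 over members and 0.014 over all genes.

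UBE2V1 RFs went from 40.7 to 26.6 FPKM, a log2 change of -0.61, while those of its partner UBE2N were 38.1 and 37.5 and those of UBE2V2 30.1 and 28.9. UBE2V1 is a member with all windows shared, and how its reads were assigned in this table is not given in the sources used here. UBE2O RFs were 9.22 and 6.75 FPKM (-0.45), the opposite sign to its change with Silvestrol. UBE2Z was at 30.2 and 38.3 (0.34), UBE2K at 13.6 and 14.4 (0.08) and UBE2L3 at 35.5 and 30.8 (-0.20).

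The log2 TE change with INK128 was past 1.5-fold upwards in all 27 members (background 91.8%) and downwards in 0 (background 1.02%), with a median of 1.13 against 1.185 over all genes, beside the shift of -1.17 in total RNA. Relative to the gene median, 0 members were lower and 0 higher by 1.5-fold (backgrounds 8.55% and 3.25%). The lowest z-scores were those of UBE2V1 (-1.004) and UBE2T (-0.99) and the highest those of UBE2Z (0.88) and UBE2K (0.75), so that 0 members passed -1.5 (background 5.60%) or 1.5 (background 1.85%). UBE2H was at -0.35 and UBE2D2 at 0.01. UBE2O was at -0.59 and UBE2L6 at 0.36. The difference between the drugs was not tested, and the tables were normalized separately. Values for genes at low read numbers in the first table were also available here, with z-scores of 0.41 for UBE2S, 0.19 for UBE2N, -0.67 for UBE2D3 and -0.03 for UBE2L3.

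**Figure D5:**
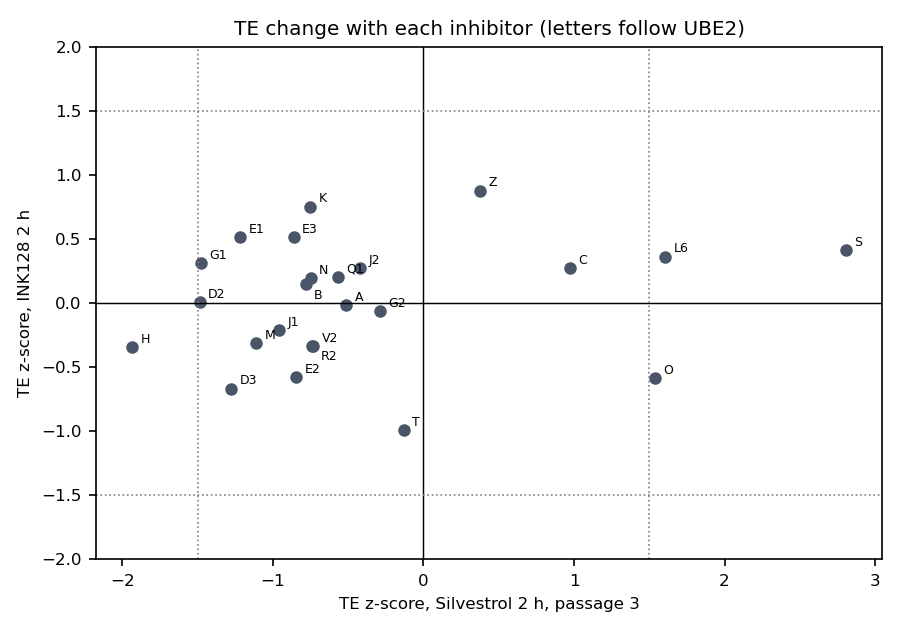
TE z-score with Silvestrol at 2 h, passage 3 (x axis) against TE z-score with INK128 at 2 h (y axis) for 24 of the 25 members kept in both tables, 1 library a group for mRNA and INK128, dotted lines at -1.5 and 1.5. With INK128 these members lie between -0.99 (UBE2T) and 0.88 (UBE2Z), while with Silvestrol they run from -1.94 (UBE2H) to 1.60 (UBE2L6), apart from UBE2S at 2.81, which rests on 5 and 12 RF reads and was at -0.16 with RFs of passage 4.

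Other genes of the pathway were read from a list of 67 symbols, of which 60 were kept. With edgeR at 2 h, 10 fell (background 7.88%) and 4 rose (background 2.47%), with a median log2 RF change of -0.18 against -0.01 over all genes. With passage as a block 25 fell (background 28.1%) and 15 rose (background 25.0%). UBA1, the main E1 of ubiquitin, was at -0.19 ± 0.12 (adjusted p = 0.349, and 0.036 with the passage block). Of 12 cullin and APC/C core genes 4 fell and 1 rose, and 6 fell and 4 rose with the block, against the same backgrounds. The cullin scaffolds CUL1 (-1.36), CUL3 (-1.56) and CUL5 (-1.08) fell with FZR1 (-1.29), an activator of the APC/C, and the RING subunit RBX1 rose (0.68). Of 25 partner E3 ligases 5 fell (UBE3A, UBE3B, HUWE1, RNF4 and MDM2, from -2.11 in RNF4 to -0.92 in UBE3A) and 2 rose (PIAS1 at 0.73 and RANBP2 at 0.70, both SUMO ligases), and 11 fell and 6 rose with the block, against the same backgrounds. BIRC6, a large E2-fold protein outside the symbol rule, rose (0.64 ± 0.11, adjusted p = 0.034), and 0 of 6 ubiquitin-like proteins were called, with SUMO3 lower and URM1 higher once passage was a block.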

How the data were processed

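For the Silvestrol libraries the authors discarded rRNA reads after trimming linkers, aligned the rest to hg19 (GRCh37) with Bowtie (the submitters' processing notes also name CASAVA 1.8.1), and deposited counts of unique reads per canonical transcript and RPKM values, which leave out ambiguous positions. For INK128 the authors deposited FPKM values, and the program is not given in the sources used here. The authors' own ratios, changes and scores (15 columns) and 0 other sample columns were left unused. Repeated lines were dropped, and of several entries for a symbol the one with the highest mean RF RPKM was kept (UBE2H has 2). Genes kept had mean RPKM of at least 1 for RF and 0.3 for mRNA, RPKM above 0 in the passage 3 libraries at 2 h and not missing in those of passage 4.

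RF counts were tested with edgeR 4.0.16 (TMM, quasi-likelihood, adjusted p under 0.05), and TE as the interaction of assay and treatment. Simulated data for 10505 genes, with 200 changed by 2 on the log2 scale, gave 192 recovered for RF and 74 for TE, with 7 and 4 false calls. The simulation used the same spread for all genes and no passage effect. Its change was larger than the main RF estimate of any member, so these rates do not describe the member changes. Deviations of the passages correlated between DMSO and Silvestrol with r = 0.686, so passage pairs the samples, a pairing that the main test left out. The labels used here give the passage number of each library. Whether libraries of a passage share a culture was not checked. Unreplicated ratios were read against 1.5-fold or a z-score of 1.5. Alternatives included DESeq2 1.42.0. GENCODE 44 transcripts on GRCh37 matched 97.7% of genes, and shared windows came from blastn 2.17.0 searches.

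All members were accounted for, except that results for 1 member and 2 other pathway genes are not reported here. Values by library, or their range, are given for members called in the RF or TE test without the passage block, and for the 3 lowest and highest RF changes and z-scores. They are also given for the 2 lowest and highest INK128 TE changes, and for members chosen by role. The members and lists were chosen with earlier results of these data known. Symbols are matched by name only.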

Additional observations from a re-analysis of the deposited data

Results flagged for a closer look

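In 2 members the RF RPKM change with Silvestrol at 1 h had the opposite sign to that of both passages at 2 h, and the difference was not tested, since there is 1 library a group at 1 h. UBE2N was at 1.11 at 1 h and at -0.67 and -1.42 at 2 h (log2 RPKM change, passages 3 and 4), on 7 to 26 reads a library. UBE2F was at 0.063 at 1 h and at -0.279 and -0.033 at 2 h.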

How the results depend on the processing

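Counts below are members lower and higher. For RF at 2 h (7 and 1) they were 14 and 4 with passage as a block, 17 and 4 with the block and the length offset (an alternative chosen after seeing the data), 13 and 3 over all 7 RF libraries and 7 and 2 with DESeq2. Leaving out 1 library gave 0 to 7 lower and 0 to 1 higher, 0 without either Silvestrol library. For TE (0 and 0) they were 13 and 5 with the block, 16 and 4 with block and offset, 3 and 2 with DESeq2, and 0 to 4 and 0 to 2 leaving out 1 library. The TE z-score (3 and 3) gave 6 and 1 with RFs of passage 4, 5 lower with a pseudocount of 0.5 RPKM and 5 lower with median and MAD. At 1 h the higher count (1) was 2 with TMM-scaled counts and 3 centred on the median gene. For INK128, a minimum of 5 FPKM left 0 lower for RF, 2 lower for total RNA and 2 higher for TE, since few members pass it, and centring gave 0 lower and 1 higher for total RNA and 0 higher for TE. Some estimates changed sign, among them that of UBE2S RF (0.82). UBE2F RF (-0.001) was 0.04 with DESeq2, 0.039 with RLE size factors, 0.18 over 7 libraries and -0.097 to 0.097 leaving out 1 library. UBE2N RF was 0.41 over 7 libraries, 0.19 with the block, -0.947 with the length offset, and -0.857 to 0.843 leaving out 1 library, and its TE was -1.181 to 0.486. RF of UBE2S was -0.333 to 2.282 and of UBE2T -0.053 to 0.287, and TE of UBE2T was -0.266 to 0.087, leaving out 1 library. The cause of each was not tested. Of the other values for the members that the naming rule picked, 346 kept sign and side of the threshold, 60 passed it only in the alternative and 20 only in the fit reported. Of the counts, 59 stayed within 1.5 times. UBE2N, UBE2S, UBE2D3 and UBE2L3 have few counted RF reads and wholly shared windows.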
